A study of Mus musculus with 2 samples.

Results

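The genes described here are those of the epidermal differentiation complex, a cluster on mouse chromosome 3 that holds most genes of the cornified envelope, together with envelope genes from other chromosomes. They were taken by gene symbol and not by level: the Lce, Sprr and numbered S100a families, and 18 named genes that include Lor, Flg, Ivl, Krtdap, Cnfn, Tgm1, Evpl and Ppl. The rule found 65 of the 43346 Ensembl genes in both deposited gene tables, of which 56 lie on chromosome 3 between 90511034 and 93564643 (mm10) and 9 elsewhere. Of the 65, 64 are annotated as protein-coding, and Sprr2g as a polymorphic pseudogene.

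The tissue was the facial prominence of B6NCrl mouse embryos at embryonic day 14.5, the part of the head that forms the jaws, palate, nose and facial skin. Total RNA, 10 ng for each library, was extracted with mirVana, limited to the longer RNAs, mixed with spike-in RNAs and sequenced after a SMART-seq protocol. There were 2 libraries in 1 group, biological replicates 2 and 1, with no treatment, no genotype contrast and no second stage. By the labels a library comes from the face of 1 pup, collected on its own day, yet the sex of both is given as pooled. A difference between the libraries therefore has no replicate check, and no p-value is given for it.

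The cornified envelope is the protein shell that replaces the plasma membrane of keratinocytes as they die at the skin surface. Plakins and involucrin form a first scaffold under the membrane, transglutaminases cross-link loricrin, small proline-rich (Sprr) and late cornified envelope (Lce) proteins onto it, and filaggrin-type proteins pack the keratin filaments inside. In the mouse these genes are switched on as the embryonic skin stratifies and gains its barrier late in gestation, and keratinised parts of the mouth use many of them too.

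The library of replicate 2 held 37738872 expected counts, of which 94.6% fell on Ensembl genes, and that of replicate 1 held 30919488, of which 96.8% did. Spike-in and phiX sequences made up 5.43% of the total in replicate 2, against 3.22% in replicate 1. TPM is an abundance per transcript length, scaled to the same total in each library, and a gene counts as expressed here at 1 TPM. For a gene of 500 effective bases, 3 counts, the most that a count of 0 allows, equal 0.235 TPM in replicate 2 and 0.304 in replicate 1. These limits and all intervals cover counting error alone. Levels are of whole tissue, in which fewer cells of a type and less RNA per cell cannot be told apart.

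Stratified epithelium was present in both libraries. All 16 genes of a list for basal epithelium reached 1 TPM in both, led by Krt14, a keratin of the basal layer, with 297 TPM in replicate 2 and 299.6 in replicate 1. Perp, of desmosomes, had 185 TPM in replicate 2, against 216 TPM in replicate 1. Krt15 had 180 TPM in replicate 2 and 126 in replicate 1, and Grhl2 was the lowest of the list with 6.51 TPM in replicate 2 and 6.20 in replicate 1. The summed level of the list was 1087 TPM in replicate 2, against 1138 TPM in replicate 1.

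Of the 65 genes, 29 were expressed in both libraries. Over all Ensembl genes that share was 34.9%, and over protein-coding genes 63.9%. Replicate 2 held 34 expressed members and replicate 1 held 29. Ivl, S100a5, Lce3c, Rptn and Sprr3 passed 1 TPM in replicate 2 alone, and no member did so in replicate 1 alone. The share of all genes that passed in 1 library alone is not given, so this difference has no background beside it. S100a5 rests on 10 counts in replicate 2 and 2 in replicate 1, and the interval of its CPM ratio, 0.893 to 39.4, includes 1. At the other end, 11 members had 0 counts in both libraries: Lce1b, Lce1e, Lce1j, Lce1k, Sprr2b, Sprr2d, Sprr2e, Sprr2f, Sprr2i, Sprr4 and S100a2. A count of 0 allows these genes between 0.172 and 0.892 TPM in replicate 2 and between 0.222 and 1.15 TPM in replicate 1, depending on their length.

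The levels were unevenly held. The summed level was 3200 TPM in replicate 2 and 2769 in replicate 1. S100a11 and S100a10 alone supplied 59.1% of it in replicate 2 and 64.9% in replicate 1. Outside the S100a family the sum was 803 TPM in replicate 2 and 563 in replicate 1, most of it from Krtdap and Dmkn. In counts, the members took 0.131% of all gene counts in replicate 2 and 0.101% in replicate 1.

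**Figure D1:**
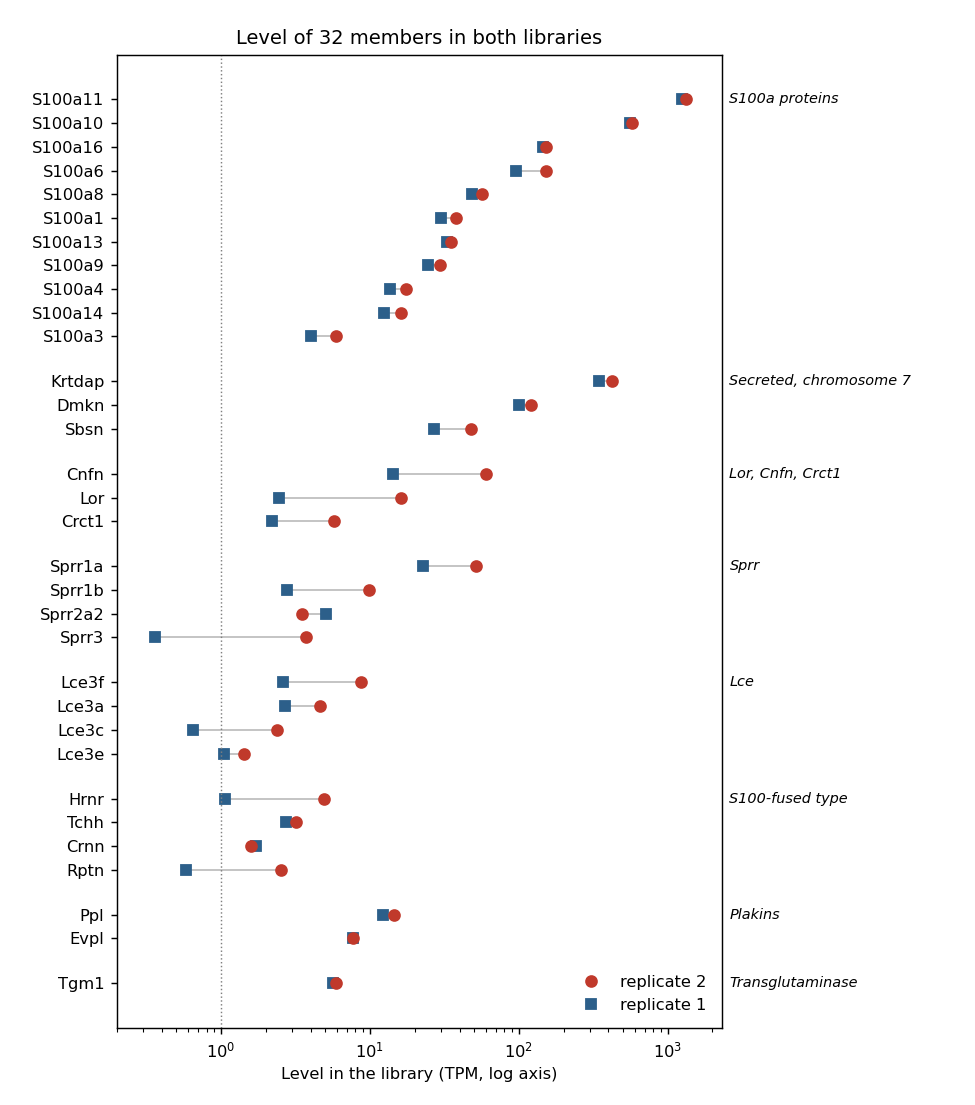
Level in TPM (log axis) of the 32 members with a mean of 1 TPM or more, by family; circles are replicate 2, squares replicate 1, the grey line joins both and the dotted line marks 1 TPM. S100a11 with 1320 and 1241 TPM and the other S100a genes lie within 2-fold, S100a6 with 153 and 95.7 TPM being the widest apart of them. Lor, Cnfn, Sprr3, Hrnr and Rptn lie far apart.

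Differences between the libraries are given as log2 of TPM + 1 in replicate 2 over replicate 1, set to 0 at the median gene, for genes with a mean of 1 TPM or more. The added 1 understates the differences of low genes. Of the 65 members 32 passed this filter. 10 of them, 31.25%, were 2-fold or more higher in replicate 2, beside 1.36% of all 15715 genes that passed. None was 2-fold or more lower, beside 0.585% of all genes. The median log2 ratio of the 32 was 0.46, where that of all genes is 0 by construction, and 31 of the 32 lay above the median gene, which by construction has as many genes above as below it. Sprr2a2 was the one below.

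Among the 32, Lce3c, Rptn and Sprr3 passed the filter through their level in replicate 2 and are no support for that count. Over the 29 members expressed in both libraries, 7 were 2-fold or more higher in replicate 2, beside 0.694% of all genes expressed in both. Without the filter, 54 members had a count in either library. Counts scaled to each library's gene total were higher in replicate 2 for 46 of these 54 and lower for 8, beside 45.5% higher over all genes with a count. Among the 54, 11 had counts in replicate 2 alone and 3 in replicate 1 alone. The direction of these was fixed by how they entered, and they are no support either. With 1 library on each side these values describe these 2 faces.

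**Figure D2:**
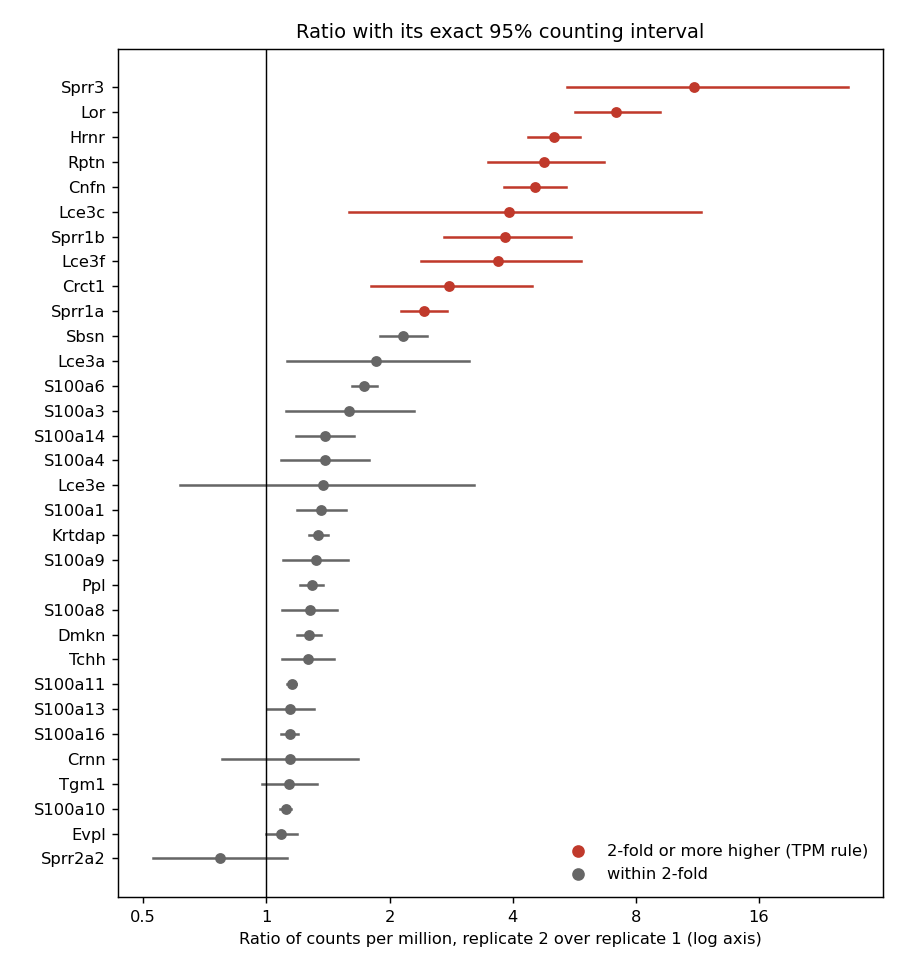
Ratio of counts scaled to each library's gene total (CPM), replicate 2 over replicate 1 (log axis), of the 32 members with a mean of 1 TPM or more; the point is the ratio and the line its exact 95% counting interval, and red marks the 10 members past 2-fold on the TPM scale. Sprr3, at 11.1, and Lor, at 7.17, lie at the top, and Sprr2a2, at 0.771, is the only one under 1.

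Lor and Cnfn had the highest log2 ratios of the 32 members. Lor encodes loricrin, the main protein of the mature envelope (chromosome 3, 92080271 to 92083142, minus strand). It had 16.2 TPM, from 693 counts, in replicate 2, against 2.45 TPM, from 81 counts, in replicate 1. Its log2 ratio of 2.45 ranked 25th of 15715 genes. In CPM, counts scaled to each library's gene total, the ratio was 7.17, with an exact 95% counting interval of 5.69 to 9.15.

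Cnfn encodes cornifelin, a small envelope protein (chromosome 7, 25367620 to 25369724, minus strand), outside the complex. It had 60.7 TPM in replicate 2, against 14.21 TPM in replicate 1, from 826 and 153 counts. The log2 ratio was 2.16 and the ratio in CPM 4.53 (3.80 to 5.41). Crct1, a cysteine-rich gene beside the Lce3 genes, had 5.71 TPM in replicate 2 and 2.21 in replicate 1, with a log2 ratio of 1.20. On CPM with TMM factors and 1 added the log2 ratio was 0.91, while the ratio in CPM with nothing added was 2.79 (1.80 to 4.47). Ivl, which encodes the early scaffold protein involucrin, was low, with 1.08 TPM from 50 counts in replicate 2 and 0.36 TPM from 13 counts in replicate 1. Its mean lay under the filter, and its ratio in CPM was 3.22 (1.73 to 6.47). Summed over Lor, Cnfn, Crct1 and Ivl, CPM were 5.08 times as high in replicate 2 (4.46 to 5.79).

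The small proline-rich family split by subgroup. Sprr1a, a cross-linking envelope protein also made by stressed epithelia, was the highest of its 15 genes, with 51.3 TPM in replicate 2 and 22.9 in replicate 1. Its log2 ratio was 1.27. Sprr1b had 9.82 TPM in replicate 2, against 2.78 TPM in replicate 1, a log2 ratio of 1.66. Sprr3, which in human is known from oesophagus and mouth, had 3.70 TPM from 106 counts in replicate 2 and 0.36 TPM from 8 counts in replicate 1. Its ratio in CPM, 11.1, was the highest of the 32 members, with a wide interval of 5.44 to 26.4.

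The summed counts of the Sprr2 genes lay on the other side. Over the 11 Sprr2 genes there were 62 counts in replicate 2 and 75 in replicate 1, a ratio in CPM of 0.693 (0.487 to 0.983). The upper limit lies close to 1, and ratios in CPM are not centred on the median gene. The Sprr1 pair had 1107 counts in replicate 2 and 359 in replicate 1, a ratio of 2.59 (2.29 to 2.92), so the counting intervals of both subgroups did not overlap. Sprr2a2 carried most of the Sprr2 counts, with 3.51 TPM in replicate 2 and 5.04 in replicate 1. Sprr2a1, Sprr2a2 and Sprr2a3 share reads in the authors' estimates, and the split among them is uncertain. Their sum was 59 counts in replicate 2 and 70 in replicate 1, a ratio in CPM of 0.707 whose interval, 0.491 to 1.01, includes 1. The other 8 Sprr2 genes had 3 counts in replicate 2 and 5 in replicate 1.

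Sequence just before the start of transcription is shown for the Sprr1 pair and Lor, all 3 past 2-fold in replicate 2, with matches to the AP-1 motif (TGANTCA) and to TATAAA in capitals. AP-1 factors and the TATA box are known from promoters of keratinocyte differentiation genes. Each is the last 150 bases before the RefSeq start on the minus strand of chromosome 3 (GRCm38.p6), read 5′ to 3′: chr3:92083143-92083292 for Lor, chr3:92485882-92486031 for Sprr1a and chr3:92438780-92438929 for Sprr1b.
Lor: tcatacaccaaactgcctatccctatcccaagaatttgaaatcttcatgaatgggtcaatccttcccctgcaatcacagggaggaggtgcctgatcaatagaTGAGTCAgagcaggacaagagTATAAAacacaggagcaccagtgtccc
Sprr1a: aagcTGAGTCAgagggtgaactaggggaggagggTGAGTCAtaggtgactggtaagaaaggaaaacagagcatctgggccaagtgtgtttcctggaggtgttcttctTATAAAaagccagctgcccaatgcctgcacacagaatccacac
Sprr1b: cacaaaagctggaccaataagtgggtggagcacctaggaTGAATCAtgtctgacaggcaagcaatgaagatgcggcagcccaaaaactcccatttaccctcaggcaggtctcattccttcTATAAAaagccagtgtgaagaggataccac
All 3 hold at least 1 match to each motif. The AP-1 match starts 48 bases before the start in Lor and 111 in Sprr1b, and Sprr1a has matches at 116 and 146 bases.

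Sprr3, Hrnr and Cnfn, also past 2-fold, are set beside them because they hold no AP-1 match in these 150 bases. The windows are chr3:92458721-92458870 (minus strand) for Sprr3, chr3:93319599-93319748 (plus strand) for Hrnr and chr7:25369725-25369874 (minus strand) for Cnfn.
Sprr3: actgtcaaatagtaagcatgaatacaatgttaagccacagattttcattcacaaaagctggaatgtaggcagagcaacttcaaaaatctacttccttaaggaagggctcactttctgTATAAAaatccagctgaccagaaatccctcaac
Hrnr: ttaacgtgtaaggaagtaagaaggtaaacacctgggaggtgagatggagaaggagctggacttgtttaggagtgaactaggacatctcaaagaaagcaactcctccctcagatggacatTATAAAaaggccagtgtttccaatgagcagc
Cnfn: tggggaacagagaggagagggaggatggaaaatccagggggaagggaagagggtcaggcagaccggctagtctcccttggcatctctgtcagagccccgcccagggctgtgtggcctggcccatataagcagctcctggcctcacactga
Sprr3 and Hrnr hold TATAAA, starting 33 and 31 bases before the start, and Cnfn holds neither motif in these letters.

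The Lce genes encode late envelope proteins, and those expressed belonged to the Lce3 subgroup. Lce3f led with 8.73 TPM in replicate 2 and 2.61 in replicate 1, a log2 ratio of 1.57. Lce3a had 4.62 TPM in replicate 2, against 2.70 TPM in replicate 1, within 2-fold. Lce3c had 2.36 TPM from 28.15 counts in replicate 2 and 0.65 TPM from 5.97 counts in replicate 1, a log2 ratio of 1.16. On CPM with TMM factors and 1 added the log2 ratio was 0.58, while the ratio in CPM with nothing added was 3.91 (1.59 to 11.6). Lce3e had 1.43 TPM in replicate 2 and 1.05 in replicate 1. Of the 6 Lce3 genes all but Lce3a share reads in the authors' estimates. Over the 6 Lce3 genes, CPM were 2.70 times as high in replicate 2 (2.05 to 3.58).

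The 12 Lce1 genes were near the limit of detection. No single gene had more than 5 counts in replicate 2 or more than 3 in replicate 1. Their sum was 25 counts over 8 genes in replicate 2, against 3 counts, all from Lce1d, in replicate 1. The CPM ratio was 6.99, with an interval of 2.13 to 36.2. Lce6a had 2 counts in each library.

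The S100-fused genes, which encode large repeat proteins of the keratin-filled cell, differed among themselves. Hrnr encodes hornerin (chromosome 3, 93319749 to 93333570, plus strand) and gave the most counts of the group, with 4.92 TPM from 1323 counts in replicate 2 and 1.06 TPM from 220 counts in replicate 1. Its log2 ratio was 1.66, and its ratio in CPM 5.04 (4.37 to 5.84). Rptn, repetin, had 2.54 TPM in replicate 2 and 0.58 in replicate 1, from 262 and 46 counts, a log2 ratio of 1.30. Tchh, trichohyalin of the hair sheath and tongue papillae, had 3.19 TPM in replicate 2, against 2.74 TPM in replicate 1. Crnn, cornulin, had 1.60 TPM in replicate 2 and 1.71 in replicate 1. Both lay within 2-fold, at log2 ratios of 0.30 for Tchh and 0.08 for Crnn.

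The filaggrins were almost undetected. Flg, which bundles keratin filaments, had 1.03 expected counts, or 0.01 TPM, in replicate 2 and 0 counts in replicate 1. Flg2 had 6 counts, or 0.16 TPM, in replicate 2 and 0 counts in replicate 1. These counts lie near the limit that a count of 0 allows, and no ratio is given.

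Of the transglutaminases and plakins, which build the scaffold, Tgm1, Evpl and Ppl passed the filter and lay within 2-fold. Tgm1, the membrane-bound cross-linker of the envelope, had 5.92 TPM in replicate 2 and 5.68 in replicate 1, a log2 ratio of 0.19. Tgm3, which acts late and in hair, was less abundant, with 0.37 TPM from 38 counts in replicate 2 and 0.68 TPM from 54 counts in replicate 1. In CPM its ratio was 0.590 (0.379 to 0.910), below 1, unlike those of most members. Evpl, envoplakin, had 7.69 TPM in replicate 2, against 7.65 TPM in replicate 1. Ppl, periplakin, had 14.5 TPM in replicate 2 and 12.2 in replicate 1. Cdsn, the adhesion protein corneodesmosin, had 0.96 TPM in replicate 2 and 0.79 in replicate 1 and did not pass the filter.

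The secreted peptides of suprabasal keratinocytes are clustered on chromosome 7, and Krtdap and Dmkn were the most abundant members outside the S100a family. Krtdap, keratinocyte differentiation-associated protein, had 420.3 TPM in replicate 2, against 344 TPM in replicate 1, a log2 ratio of 0.43. Dmkn, dermokine, had 121 TPM in replicate 2 and 100.2 in replicate 1, a log2 ratio of 0.41. Sbsn, suprabasin, had 47.6 TPM in replicate 2 and 27.1 in replicate 1. Its log2 ratio was 0.93, just under the 2-fold line, or 1.08 on CPM with TMM factors and 1 added.

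The value of Sbsn mixes 2 genes of the later annotation, a point found after its values were seen. In the deposited transcript tables its leading transcript, of 456 bases, took 45.24% of the gene's TPM in replicate 2 and 62.5% in replicate 1. GENCODE M21 gives that transcript (chromosome 7, 30734739 to 30756126) to Tmem147os, a non-coding gene on the same strand. It overlaps nearly all of Sbsn, which lies between 30751471 and 30756134. The 5 transcripts left to Sbsn summed to 26.1 TPM in replicate 2, against 10.2 TPM in replicate 1. On these the log2 ratio was 1.41, past 2-fold, and the ratio in CPM 2.64 (2.25 to 3.12). With Sbsn counted this way, 11 of the 32 members were past 2-fold.

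The leading share differed less in the other members. Of the 11 members with several annotated transcripts and a mean of 5 TPM or more, 6 had a leading transcript above 80% of the gene's TPM in both libraries. Dmkn-201 took 85.93% in replicate 2 and 86.08% in replicate 1, although Dmkn has 6 transcripts. Krtdap was divided, with Krtdap-203 at 38.73% and Krtdap-201 at 31.08% in replicate 2, and 39.34% and 31.03% in replicate 1. Tgm1-203 took 84.43% in replicate 2 and 100% in replicate 1. The next wider differences were in S100a14, where the transcript of 1097 bases took 69.6% in replicate 2 and 81.54% in replicate 1, and in S100a16, where that of 1127 bases took 53.58% in replicate 2 and 45.93% in replicate 1. Of Cnfn the transcript of 723 bases took 53.45% in replicate 2 and 59.61% in replicate 1, so the higher level of Cnfn was shared by both of its transcripts. The error of these shares is not given in the files, and they were not tested.

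**Figure D3:**
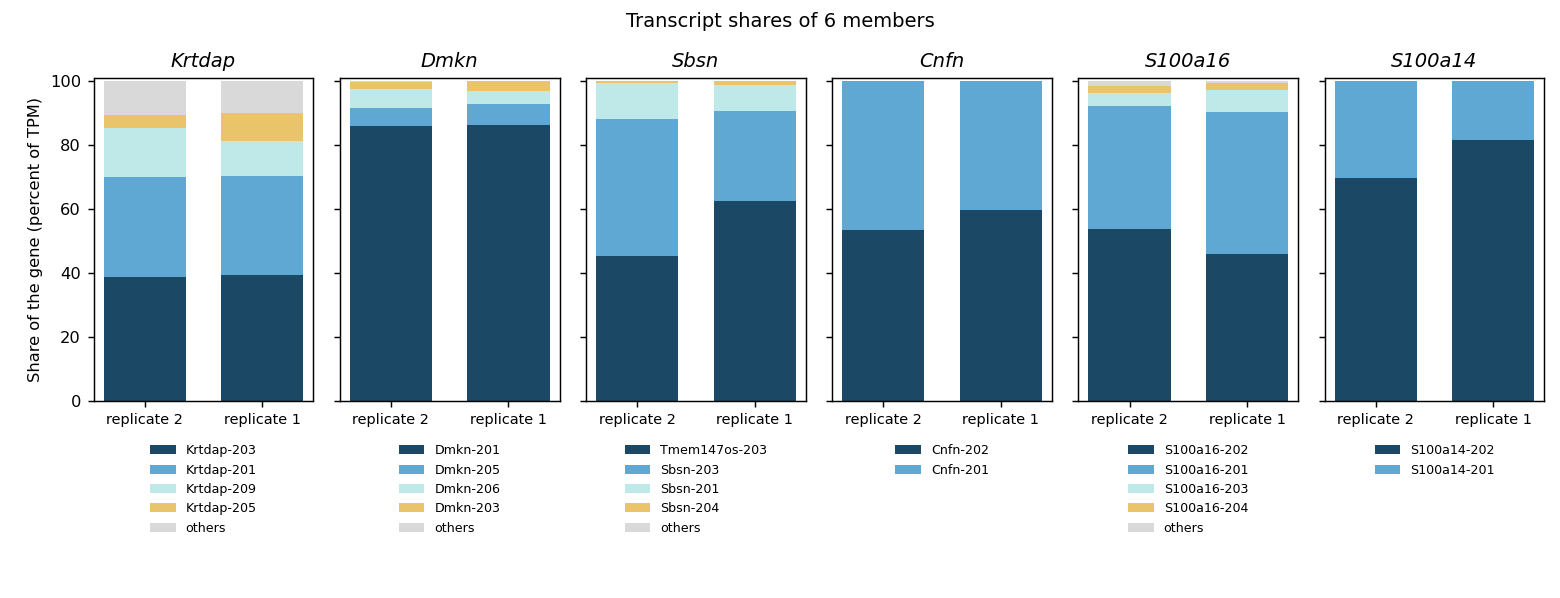
Share of each gene's TPM (percent) taken by its transcripts in replicate 2 (left bar) and replicate 1 (right bar) of 6 members; colours are the 4 leading transcripts by name, grey the others. The lower segment of the Sbsn bars is Tmem147os-203, at 45.24% in replicate 2 and 62.5% in replicate 1, while Dmkn-201 takes 85.93% in replicate 2 and 86.08% in replicate 1.

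The S100a genes encode small calcium-binding proteins, several of which are cross-linked into the envelope while others serve non-epithelial cells. Of 13 genes 11 were expressed in both libraries. The 11 log2 ratios ran from 0.18 to 0.81 with a median of 0.41, and 0 of 11 passed 2-fold. S100a11, a transglutaminase substrate of keratinocytes (chromosome 3, 93520488 to 93526287, plus strand), had 1320 TPM in replicate 2 and 1241 in replicate 1. S100a10, which binds annexin A2 at the membrane, had 572 TPM in replicate 2 and 556 in replicate 1.

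S100a6, calcyclin, had the highest log2 ratio of these 11, at 0.81, with 153 TPM in replicate 2, against 95.7 TPM in replicate 1. S100a16 had 152 TPM in replicate 2 and 146 in replicate 1. S100a1, known from heart and skeletal muscle, had 37.8 TPM in replicate 2 and 30.1 in replicate 1. S100a13 had 34.9 TPM in replicate 2, against 33.01 TPM in replicate 1. The lowest expressed in both were S100a4, S100a14 and S100a3. S100a4, known from fibroblasts and leukocytes, had 17.4 TPM in replicate 2 and 13.6 in replicate 1. S100a14, of epithelia, had 16.2 TPM in replicate 2 and 12.4 in replicate 1. S100a3, of the hair cuticle, had 5.95 TPM in replicate 2, against 4.05 TPM in replicate 1. S100a5 had 10 counts in replicate 2 and 2 in replicate 1. Over the whole family, CPM were 1.18 times as high in replicate 2 (1.16 to 1.20).

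S100a8 and S100a9 form calprotectin, which neutrophils carry in bulk and inflamed keratinocytes also make. S100a8 had 57.05 TPM in replicate 2 and 48.5 in replicate 1, and S100a9 had 29.7 TPM in replicate 2 and 24.4 in replicate 1. Neutrophil genes were present as well: 3 of 8 reached 1 TPM in both libraries, with a sum of 18.7 TPM in replicate 2, against 17.5 TPM in replicate 1. Ngp had 8.70 TPM in replicate 2 and 6.32 in replicate 1, and Camp had 4.71 TPM in replicate 2 and 4.36 in replicate 1. Ltf had 2.97 TPM in replicate 2, against 1.86 TPM in replicate 1. The genes of the granule enzymes myeloperoxidase and elastase ran the other way. Mpo had 0.58 TPM in replicate 2 and 2.19 in replicate 1, with a CPM ratio of 0.282 (0.185 to 0.420), and Elane had 0.53 TPM in replicate 2 and 1.73 in replicate 1, with a CPM ratio of 0.329 (0.148 to 0.683). The surface marker Ly6g was near 0, with 0.05 TPM in replicate 2 and 0 in replicate 1. All 7 macrophage genes were expressed, led by C1qa with 37.5 TPM in replicate 2 and 37.7 in replicate 1. Csf1r had 25.5 TPM in replicate 2 and 25.7 in replicate 1, and Cd68 had 17.4 TPM in replicate 2, against 21.2 TPM in replicate 1. Cx3cr1 was the lowest with 7.42 TPM in replicate 2 and 9.15 in replicate 1. The part of these cells in the levels of S100a8 and S100a9 was not tested.

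The upstream sequences of Krtdap and S100a11, the most abundant secreted and S100a members, are shown in the same way. Both were within 2-fold, and both hold AP-1 matches. They are the 150 bases at chr7:30787755-30787904 and chr3:93520346-93520495, both on the plus strand of GRCm38.p6.
Krtdap: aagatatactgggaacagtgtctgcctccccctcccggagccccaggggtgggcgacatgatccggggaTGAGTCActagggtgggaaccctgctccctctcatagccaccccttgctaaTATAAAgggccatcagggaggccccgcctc
S100a11: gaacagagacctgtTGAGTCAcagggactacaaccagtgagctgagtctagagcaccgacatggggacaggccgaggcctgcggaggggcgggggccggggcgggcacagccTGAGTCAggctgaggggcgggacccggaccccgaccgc
Krtdap holds 1 AP-1 match and TATAAA, while S100a11 holds 2 AP-1 matches and no TATAAA in this window.

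Over the whole group, 57 of the 65 members had a RefSeq promoter window, and the 250 bases before the start were searched on both strands. The AP-1 motif occurred in 20 of 57 members (35.1%) and in 7.82% of the 27025 genes with a window. Of these 20, 7 belong to the Sprr2 subgroup. TATAAA occurred in 25 members (43.9%) and in 14.3% of all genes. In 20 of the members it began 25 to 35 bases before the start, a range set after the positions were seen and found in 2.12% of all genes. Here too 7 of the 20 belong to Sprr2.

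For the other 4 motifs, GGGCG, bound by Sp factors and found in CpG-rich promoters, occurred in 22.8% of members and in 46.2% of all genes. CACCC, bound by Klf factors, occurred in 54.4% of members and in 54.5% of all genes. CATG, the core of the p63 motif, occurred in 78.9% of members and in 57.6% of all genes, and AACCGGTT, the Grainyhead motif, in 0 of 57 members and in 0.137% of all genes. AP-1 matches were held by 4 of the 9 members past 2-fold that had a window and by 6 of the 18 within 2-fold, and TATAAA by 6 of 9 and 6 of 18. A match is a description of letters and not a site or a cause.

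Along chromosome 3, the members past 2-fold lay in the middle of the cluster. The 11 S100a genes from S100a1 to S100a9, between 90511034 and 90695721, had 9 members past the filter, of which 0 were past 2-fold. The 42 members from Lor to Rptn, between 92080271 and 93399442, had 13 past the filter, of which 9 were past 2-fold, at a median log2 ratio of 1.27. Over the 10 of them expressed in both libraries, which leaves out Lce3c, Rptn and Sprr3, 6 were past 2-fold, at a median of 1.24. The last 3, Tchh, S100a11 and S100a10, had 0 past 2-fold. These stretches were drawn after the values were seen and carry no test. They follow the gene families, since the first stretch holds S100a genes alone. Off chromosome 3, Cnfn was the only one past 2-fold of the 7 that passed the filter. With the Tmem147os transcript taken out, Sbsn on chromosome 7 was past 2-fold too, at a log2 ratio of 1.41.

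**Figure D4:**
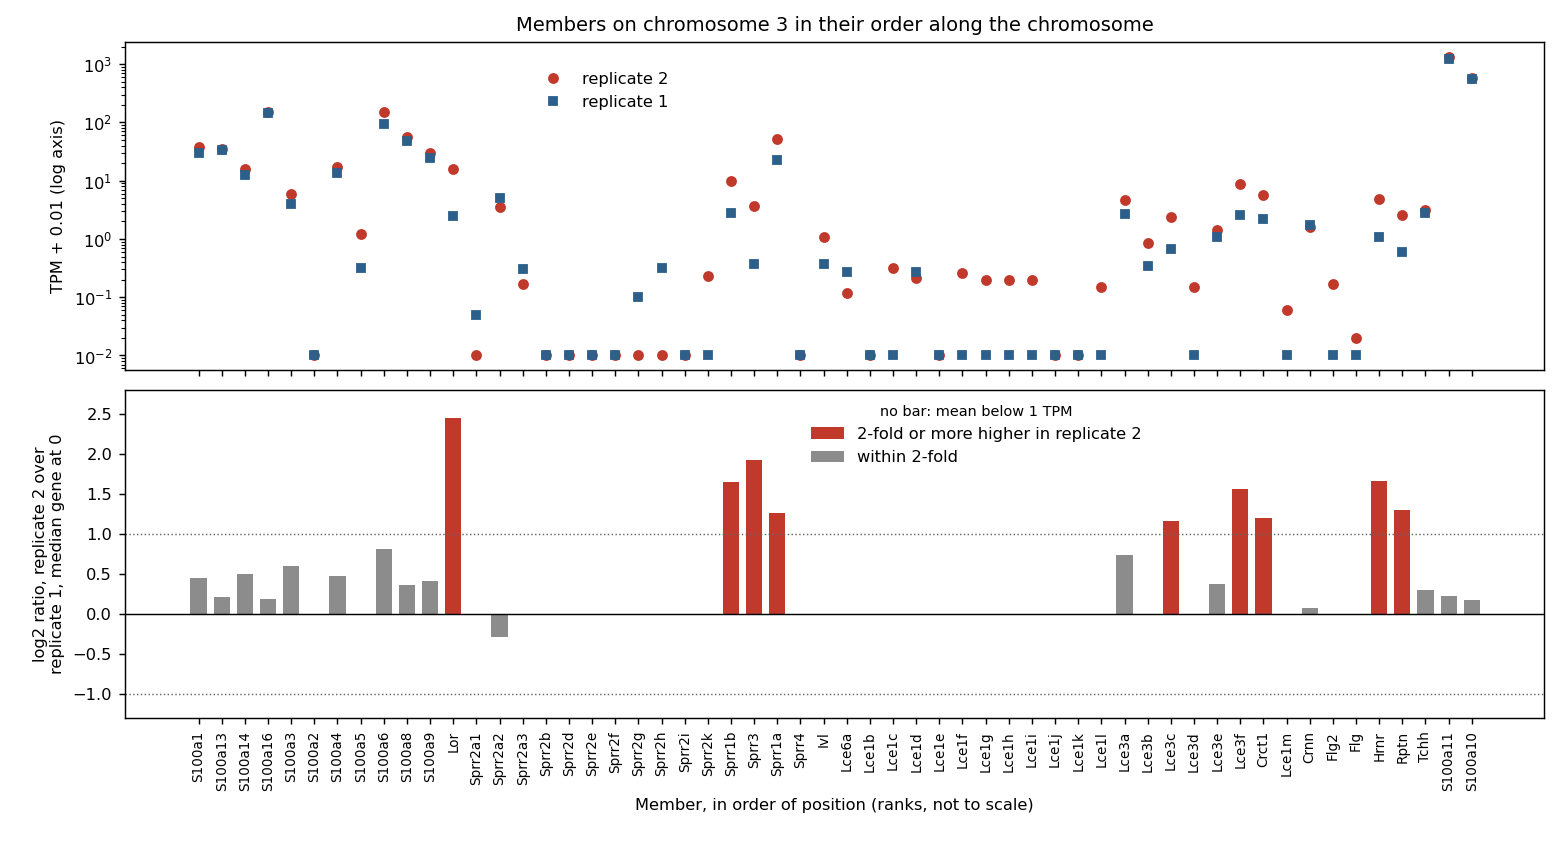
The 56 members on chromosome 3 in order of position (ranks, not to scale): above, the level as TPM + 0.01 (log axis) in replicate 2 (circles) and replicate 1 (squares); below, the log2 ratio of replicate 2 over replicate 1 for members with a mean of 1 TPM or more. The 9 red bars past 2-fold lie between Lor and Rptn, and the S100a genes at both ends lie between 0.18 and 0.81.

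Genes that sit among the members but are not part of them were mostly silent. Of 52 other Ensembl genes in the span 3 passed the filter, and 1 of these, the proline-rich gene Prr9, was past 2-fold, with 5.83 TPM in replicate 2 and 0.94 in replicate 1, so that it passed the filter through replicate 2. On a list of 10 such neighbours Prr9 alone passed it, and 0 were expressed in both libraries. Pglyrp3, a peptidoglycan recognition protein, had 1.09 TPM in replicate 2, against 0.80 TPM in replicate 1. S100a7a, a psoriasin-type gene, had 0.73 TPM in replicate 2 and 0.08 in replicate 1. Lelp1 and Smcp had 0 in both.

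Related genes elsewhere in the genome were set beside the members. Of the 3 other S100 genes, S100b, of glia and chondrocytes, had 9.83 TPM in replicate 2 and 11.8 in replicate 1, and S100z had 2.34 TPM from 12 counts in replicate 2, against 0.76 TPM from 3 counts in replicate 1. S100z passed the filter through replicate 2 alone, and the interval of its CPM ratio, 0.905 to 18.5, includes 1. Of 6 other transglutaminase genes, F13a1, a factor XIII subunit of macrophages, had 24.5 TPM in replicate 2 and 21.1 in replicate 1, and Tgm2 had 14.1 TPM in replicate 2 and 14.6 in replicate 1. Tgm5 had 0.66 TPM in replicate 2, against 0.30 TPM in replicate 1, and Tgm7, the lowest, had 0.02 TPM in each. Neither of the 2 that passed the filter was past 2-fold.

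Envelope proteins outside the member list were expressed and within 2-fold, at 10 of 10 genes and a median log2 ratio of 0.33. Anxa1, an annexin of the envelope, had 262 TPM in replicate 2 and 201 in replicate 1. Cstb, a cystatin, had 198 TPM in replicate 2 and 203 in replicate 1, and Jup, plakoglobin, had 78.8 TPM in replicate 2, against 93.1 TPM in replicate 1. Csta1 was the lowest with 2.67 TPM in replicate 2 and 1.86 in replicate 1.

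Several genes of differentiated layers outside the member list were also past 2-fold. Of 9 epidermal suprabasal genes past the filter, Ly6d was past 2-fold, with 77.5 TPM in replicate 2 and 30.9 in replicate 1. Krt1 and Krt10, the keratin pair of the spinous layer, lay just within it at log2 ratios of 0.77 and 0.93. Krt1 had 84.8 TPM in replicate 2, against 54.4 TPM in replicate 1, and Krt10 had 70.6 TPM in replicate 2 and 40.2 in replicate 1. Sfn, the most abundant by mean, lay at -0.01. Dsc1, a desmosomal cadherin, was the lowest with 0.59 TPM in replicate 2 and 0.55 in replicate 1. The median of the 9 was 0.58. Of 4 oral and stress keratins past the filter 3 were past 2-fold, at a median of 1.48. Krt13, of oral epithelium, had a log2 ratio of 2.57, Krt6a 1.80 and Krt4 1.16. Krt4 had 110.1 TPM in replicate 2, against 53.7 TPM in replicate 1. Not all of this list was higher in replicate 2. Krt76, under the filter, had 0.23 TPM from 13 counts in replicate 2 and 0.55 TPM from 24 counts in replicate 1. Its CPM ratio was 0.454 (0.212 to 0.928). Krt6b, also under the filter, went the other way, with 0.88 TPM in replicate 2 and 0.13 in replicate 1. Krt84 was the lowest, with 0.02 TPM in each library.

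The medians of basal layer genes and of regulators of stratification lay near 0. The median log2 ratio of the 16 basal genes was -0.02, from -0.54 to 0.64, and 0 passed 2-fold. Of 20 transcription factors and regulators 0 passed 2-fold, at a median of -0.04, with ratios in both directions from -0.57 (Grhl3) to 0.76 (Cebpb). Nfe2l2, a stress regulator, had 40.2 TPM in replicate 2 and 39.5 in replicate 1, and Trp63, the master regulator of stratified epithelium, had 27.0 TPM in replicate 2 and 32.8 in replicate 1. Hopx was the lowest with 2.15 TPM in replicate 2 and 1.31 in replicate 1. With ratios set to 0 at the median of the basal genes, in place of the median of all genes, 10 of 32 members were past 2-fold as before. Since the basal median lay at -0.02, this shift was too small to move any member across the line.

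The periderm is the outer layer of flat cells that covers the embryonic epidermis and is later shed. Of its 9 listed genes 8 were expressed in both libraries, with a median log2 ratio of 0.25. Krt17 had 115 TPM in replicate 2 and 104 in replicate 1, and Krt19 had 93.1 TPM in replicate 2, against 67.8 TPM in replicate 1. Krt8 had 87.3 TPM in replicate 2 and 60.9 in replicate 1. Gabrp was the lowest and the only one past 2-fold, lower in replicate 2, with 0.79 TPM in replicate 2 and 3.35 in replicate 1, where alone it reached 1 TPM.

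Enzymes of the lipid barrier, which coats the envelope with ceramides, were mostly within 2-fold, with 1 of the 12 that passed the filter past it and a median of -0.01. Alox12b, a lipoxygenase of the envelope lipids, had 3.65 TPM in replicate 2, against 0.50 TPM in replicate 1, and passed the filter through replicate 2. Smpd1, an acid sphingomyelinase, had 38.9 TPM in replicate 2 and 44.2 in replicate 1. Elovl4, which makes very long fatty acids, had 24.9 TPM in replicate 2 and 31.5 in replicate 1. Sdr9c7 was the lowest with 0.86 TPM in replicate 2 and 0.62 in replicate 1. Aloxe3, like Sdr9c7 under the filter, had 1.48 TPM from 70 counts in replicate 2 and 0.33 TPM from 20 counts in replicate 1. Its CPM ratio was 2.93 (1.76 to 5.09). Of 8 proteases and inhibitors past the filter 2 were past 2-fold, at a median of 0.25. Asprv1, which processes profilaggrin, had 56.8 TPM in replicate 2 and 30.4 in replicate 1. Spink5, an inhibitor of the kallikreins that shed the skin, had 3.02 TPM in replicate 2, against 0.58 TPM in replicate 1, and passed likewise. Spint1 and Klk8, the next by mean, had 10.7 and 11.3 TPM in replicate 2 and 13.8 and 11.4 TPM in replicate 1. Klk14 was the lowest with 0.17 TPM in replicate 2 and 0.04 in replicate 1.

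**Figure D5:**
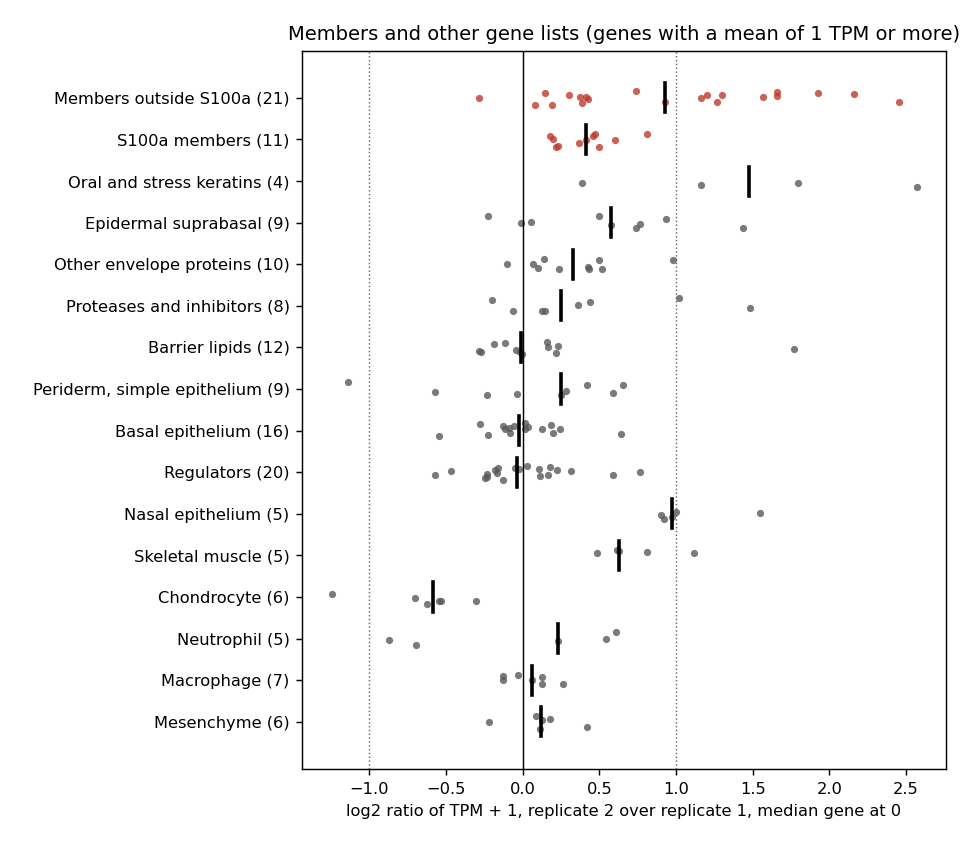
log2 ratio of TPM + 1, replicate 2 over replicate 1 with the median gene at 0, for genes with a mean of 1 TPM or more in the members (red) and other lists (grey); each point is a gene, each black bar a median, the number tested is in brackets and dotted lines mark 2-fold. Members outside S100a, with a median of 0.93 (0.58 over the 18 expressed in both libraries), and oral and stress keratins, with 1.48, lie to the right, the basal epithelium is centred on 0 and the chondrocyte genes lie to the left at -0.59.

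Lists for other tissues of the face differed between the libraries too. The 5 expressed genes of nasal epithelium were higher in replicate 2, at a median of 0.97. Among them Bpifa1 had 134 TPM in replicate 2 and 74.7 in replicate 1, Cbr2 had 87.6 TPM in replicate 2, against 47.8 TPM in replicate 1, and Cyp2f2 had 49.0 TPM in replicate 2 and 28.02 in replicate 1. Sec14l3, past 2-fold, had 5.19 TPM in replicate 2 and 1.33 in replicate 1. Scgb1a1 was near 0. The 5 skeletal muscle genes were higher too, at a median of 0.63, with a sum of 4997 TPM in replicate 2, against 3458 TPM in replicate 1, and Ckm was past 2-fold. The 6 chondrocyte genes were lower, at a median of -0.59, with a sum of 527 TPM in replicate 2 and 931 in replicate 1, and Matn1 was past 2-fold. Medians lay nearer 0 for mesenchyme (0.12), Schwann cells (0.07), macrophages (0.06), neutrophils (0.23) and endothelium (0.00). The part of a differing tissue makeup or stage in the ratios of the members was not tested.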

How the data were processed

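Each library's gene and transcript tables were made for mm10 with GENCODE M4, per the companion text, and each library was estimated on its own. Neither the aligner nor the quantifier's version, trimming or strand handling is given in the sources used here. The deposited expected counts are estimated reads of a gene with no depth scaling. The authors' TPM values divide these counts by effective length and set them to 1 total that includes the spike-ins. FPKM values were deposited beside them and served as an alternative. Transcript shares were deposited as the percent of TPM that each transcript holds in its gene.

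Ensembl genes were matched by identifier to GENCODE M21 on the same build, and 42462 of 43346 had a symbol. The 26345 other rows, among them 97 spike-in and phiX sequences, entered no comparison and no total of gene counts. TPM rests on transcripts per length and CPM on counts alone. Ratios are log2(TPM + 1) of replicate 2 over replicate 1, centred on the median gene, whose own value was -0.14, among genes with a mean of 1 TPM or more. Exact binomial intervals at the 95% level used rounded expected counts over the total of gene counts (CPM). With 2 libraries no test across samples was made. Whether both faces came from separate litters is not stated beyond the collection days, so the spread between them may be technical or biological.

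Members and lists were chosen with earlier results of these data known. Any member may be named. Values in both libraries are given for members with a mean of 5 TPM or more and for the envelope genes of the rule, and of each list for the highest 3, the lowest and those past 2-fold. Values of a few such list genes are left out here. Of the marker lists for non-epithelial tissue, medians and selected members are given. Promoter windows came from RefSeq (GRCm38.p6), and 8 members had none. The scripts, in Python 3.11.15 with numpy 2.4.6, pandas 2.3.3, scipy 1.17.1 and matplotlib 3.10.9, were tested on simulated data. R 4.3.3 with edgeR 4.0.16 and DESeq2 1.42.0 gave scaling factors alone. Alternatives were other pseudocounts, filters, folds, units, centrings and scalings and each replicate left out. In other units 1 was added before the log as well.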

Additional observations from a re-analysis of the deposited data

How the results depend on the processing

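The count of members 2-fold or more higher in replicate 2 stayed between 7 and 11 of the 29 to 54 that passed under other pseudocounts, centrings, scalings and units, without the filter and with a level of 1 TPM asked in both libraries. It was 5 of 22 at a mean of 5 TPM, where 0.601% of all genes were higher and 0.218% lower, and 5 at a fold of 3, beside 0.554% of all genes. At a fold of 1.5 it was 14, beside 3.85%. The count lower was 0 under every alternative run. Without the filter this was fixed in advance for the members it added. All of them lay under 1 TPM in replicate 1, too low for a 2-fold lower call with 1 added. The share of all genes called moved to 2.25% higher and 1.04% lower with a pseudocount of 0.1, to 0.783% and 0.134% with TMM factors, to 0.776% and 0.134% with DESeq2 size factors, and to 0.694% and 0.152% with 1 TPM asked in both. The median log2 ratio of members was 0.34 without the filter, over 54 members, and 0.33 when TPM was not centred. Relative to the median gene, the summed level was 1.27 times as high in replicate 2, and 1.57 times outside the S100a family. Members expressed numbered 34 without replicate 1 and 29 without replicate 2. Over 371 alternative ratios of the 32 members 1 changed sign, that of Crnn at -0.06 when TPM was not centred. These are not 371 separate checks, since several settings shifted all ratios by the same amount or changed Sbsn alone. Of the 10 called members only Lce3c, in 3 settings, and Crct1, in 2, went under 2-fold. Those settings, CPM with TMM or DESeq2 factors and for Lce3c also FPKM, had 1 added before the log. With nothing added the CPM ratios were 3.91 for Lce3c and 2.79 for Crct1.

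No paired analysis was possible because the series has 1 group, so replicate numbers pair nothing, and a ratio between replicates cannot be computed with either left out. Centring on basal genes, asking for 1 TPM in both and taking Tmem147os out of Sbsn were added after the data were seen. Depth limits the Lce1, Sprr2, Flg and Flg2 values, which rest on few counts.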
